A study of Mus musculus with 13 samples.

Results

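The 6 genes described here encode the main connexins of brain cells and one pannexin. They were Gja1 (Cx43) and Gjb6 (Cx30) of astrocytes, Gjb1 (Cx32) and Gjc3 (Cx29) of oligodendrocytes, Gjd2 (Cx36) of neurons, and Panx1. They were chosen by name from the 55401 gene identifiers of the series, and each symbol stood for 1 identifier. All 6 passed the filter on low counts. The data were bulk RNA-seq libraries from the snap-frozen brain hemisphere of 13 male C57BL/6J mice, 1 library per mouse, in which the RNA of all cell types is mixed.

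CTL mice (n = 5) ate normal chow for 6 weeks. CPZ mice (n = 4) ate chow with 0.3% cuprizone for 4 weeks and were killed at that point. Cuprizone is a copper chelator whose feeding kills mature oligodendrocytes (MOL) and strips myelin, most visibly in the corpus callosum. RCV mice (n = 4) had 4 weeks of the same cuprizone chow and were then returned to normal chow for 2 weeks, a time in which myelin regrows. Their library titles begin with Veh, and they were placed in this group by the treatment that the labels give. The labels put the age of the mice at 6 to 8 weeks. CPZ mice were thus collected 2 weeks earlier in the schedule than the others, so that this difference in time and the treatment cannot be told apart.

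Connexins are membrane proteins with 4 membrane-spanning segments. They assemble as hexamers into hemichannels, and hemichannels of adjoining cells dock through their extracellular loops to form gap junctions, which pass potassium, calcium signals and small metabolites. In the brain, Cx43 and Cx30 couple astrocytes to each other and, with connexins such as Cx32 on the other side, to oligodendrocytes. This panglial network carries potassium away from firing axons. Cx36 forms electrical synapses between neurons. Pannexins share the membrane layout but not the sequence of connexins, and Panx1 forms a single-membrane channel that releases ATP.

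The part of the coding sequence that the connexins have in common is shown because these genes are one family and the counts of each depend on telling its reads from those of the others. The first extracellular loop carries 3 cysteines that are needed for docking, with 6 and then 3 residues between them. This spacing was found once in each of the 5 connexins, and it was not found in Panx1. The 36 bases are given 5′ to 3′ on the coding strand of GENCODE M21 on GRCm38 (mm10), with the cysteine codons in capitals.
Gja1: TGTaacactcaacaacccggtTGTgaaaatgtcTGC
Gjb6: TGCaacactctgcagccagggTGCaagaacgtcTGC
Gjb1: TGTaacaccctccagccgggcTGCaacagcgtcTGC
Gjc3: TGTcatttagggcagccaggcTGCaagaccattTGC
Gjd2: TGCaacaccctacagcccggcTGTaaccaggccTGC

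These stretches lie in coding exons at chr10:56387706-56387741 (+, Gja1), chr14:57124611-57124646 (-, Gjb6), chrX:101384324-101384359 (+, Gjb1), chr5:137957797-137957832 (-, Gjc3) and chr2:114011797-114011832 (-, Gjd2). Gjc3 stood furthest from the rest, with 50% of the 36 bases identical to Gja1 and to Gjd2. The closest pair was Gjb6 with Gjb1, at 80.6%. Over whole transcripts, no run of 50 bases, the length of 1 read, was shared between any of these genes and another connexin or pannexin. Gjb6, Gjb1 and Panx1 shared no such run with any other gene. Gja1 shared 0.115% of its runs, Gjd2 0.283% and Gjc3 2.07% with genes outside the family. Gjd2 (chr2:114009601-114013619) overlaps the gene A530058N18Rik by 57 bases, and whether the counting used strand is not given in the sources used here.

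Libraries held 5422264 to 7486387 estimated counts in CTL, 6743067 to 8197289 in CPZ and 4605100 to 6990717 in RCV. For the 6 genes, the counts behind a value ran from 23 to 56 for Gjd2 at the low end to 752 to 1338 for Gja1 at the high end. Counting error alone, as 1 over the square root of the count, was thus up to 20.9% for Gjd2 and at most 3.65% for Gja1. The 12 MOL markers summed to 4427 to 8313 CPM in CTL, 1882 to 3215 CPM in CPZ and 5829 to 9953 CPM in RCV, and all 12 were lower in CPZ than in CTL. A gene is called here, higher or lower, when its Benjamini-Hochberg adjusted p in the edgeR fit over all 14985 genes tested was below 0.05, which held for 10.2% of them in this contrast. Markers of excitatory neurons (0 of 6) and inhibitory neurons (0 of 7) were not called in that contrast. Markers of single regions varied between libraries, and 6 of the choroid plexus summed to between 13.5 and 2753 CPM and 6 of striatal neurons to between 75.1 and 1040 CPM. Their part in the values below was not tested.

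Levels of different genes were compared per transcript length, as TPM, which is scaled to length and to library size. In CTL, Gja1 was highest at 119.5 ± 7.97 TPM (SD, n = 5), above Gjb6 at 63.8 ± 19.7 and Gjc3 at 46.4 ± 8.47. Gjb1 followed at 25.1 ± 7.67 TPM, Panx1 at 20.2 ± 5.91 and Gjd2 at 5.31 ± 0.914. The libraries of Gjb6 and Gjc3 overlapped, as did those of Gjb1 and Panx1, whereas the other neighbours in the order were separate. The neuronal connexin was therefore the lowest of the 6 in hemisphere RNA, and the astrocyte connexin Cx43 the highest.

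In CPZ, the order was Gja1 at 110.5 ± 3.55 TPM (SD, n = 4), Gjb6 at 90.4 ± 21.1, Gjc3 at 42.7 ± 3.46, Panx1 at 19.0 ± 4.87, Gjb1 at 16.3 ± 3.50 and Gjd2 at 3.63 ± 0.571. Panx1 and Gjb1 changed places there, but their libraries overlapped, and those of Gja1 and Gjb6 overlapped as well. In RCV, the order was that of CTL, with Gja1 at 125.5 ± 14.4 TPM and Gjd2 at 4.07 ± 0.924 (SD, n = 4). The libraries of Gjb6 and Gjc3, of Gjc3 and Gjb1, and of Gjb1 and Panx1 overlapped in RCV.

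**Figure D1:**
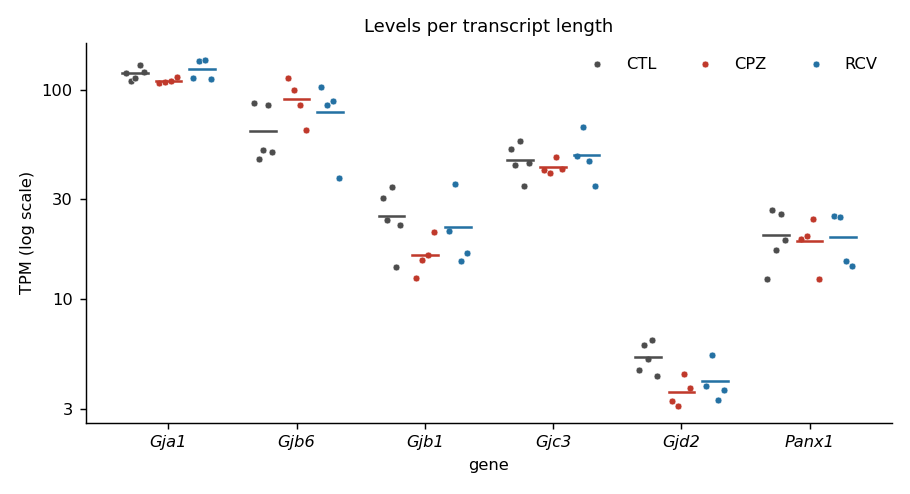
TPM on a log scale for each gene, with 1 point per library, colour for the group (CTL n = 5, CPZ n = 4, RCV n = 4) and a line at the group mean. Gja1 lay above 100 TPM in all 13 libraries and Gjd2 below 7 TPM in all 13.

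The TPM values of Gjb6 and Panx1 carried an additional source of spread. The count that 1 TPM stood for, after library size, varied 2.26-fold between libraries for Gjb6 and 2.08-fold for Panx1, against 1.26-fold for Gjc3 and at most 1.04-fold for Gja1, Gjb1 and Gjd2. In 689 genes with 1 annotated transcript, this factor varied by a median of 1.003-fold. In CTL, the coefficient of variation of Gjb6 was 30.9% as TPM and 17.2% as CPM, and that of Panx1 was 29.3% as TPM and 16.8% as CPM. Groups were therefore compared on counts, given below as CPM scaled by the trimmed mean of M values (TMM).

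None of the 6 genes was called higher or lower in any contrast between the groups. In CPZ against CTL, 0 of the 6 were called, where 10.2% of 14985 genes passed (7.66% with the higher level in CPZ, 2.5% with the lower). At an unadjusted p below 0.05 there were 2 of 6, Gjb6 and Gjd2, beside 22.1% of all genes. In RCV against CTL, 0 of 6 were called beside 0.374% of all genes (0.36% higher and 0.0133% lower in RCV), and 0 of 6 had an unadjusted p below 0.05 beside 6.2%. In CPZ against RCV, 0 of 6 were called beside 7.01% of all genes (5.13% with the higher level in CPZ, 1.88% with the lower), and 1 of 6, Gja1, had an unadjusted p below 0.05 beside 19.1%. DESeq2 and limma-voom also called 0 of 6 in each contrast. None of the 6 genes had libraries of the groups that did not overlap, whereas this held for 13.1%, 2.9% and 13.2% of all genes in these contrasts.

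Gja1 encodes Cx43, the most abundant astrocyte connexin, and its levels lay close together in all groups. CTL libraries held 176.7, 160.5, 166.4, 183.5 and 171.6 CPM, CPZ libraries 157.9, 153.2, 161.2 and 172.8 CPM, and RCV libraries 166.7, 202.5, 207.5 and 163.1 CPM. The groups overlapped, with the highest values in RCV replicates 2 and 3. The log2 fold change was -0.09 for CPZ against CTL (95% interval -0.25 to 0.07, adjusted p = 0.556, edgeR), which corresponds to a fold between 0.84 and 1.05. It was 0.11 for RCV against CTL (-0.05 to 0.27, adjusted p = 0.956). For CPZ against RCV it was -0.20 (-0.37 to -0.03), with an unadjusted p = 0.0245 and an adjusted p = 0.174 in the edgeR fit.

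Gjb6 encodes Cx30, the second astrocyte connexin, which appears later in development than Cx43 and is rich in gray matter. It stood at 46.2, 30.6, 36.9, 46.2 and 45.7 CPM in CTL, at 56.2, 51.4, 49.8 and 45.3 CPM in CPZ, and at 43.8, 54.4, 49.5 and 35.99 CPM in RCV. Of the CPZ libraries, 3 of 4 were above every CTL library, and CPZ replicate 4 lay within the CTL range. For CPZ against CTL the log2 fold change was 0.30 (95% interval 0.02 to 0.58), or 1.23-fold, and it did not pass the test over all genes (unadjusted p = 0.0358, adjusted p = 0.186, edgeR). On log2(TPM + 1) it was 0.52 (adjusted p = 0.394, limma). For RCV against CTL it was 0.16 (-0.12 to 0.45, adjusted p = 0.976), and for CPZ against RCV 0.14 (-0.16 to 0.43, adjusted p = 0.67).

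Within the same library, Gjb6 stood below Gja1 by 1.90 to 2.38 in log2-CPM in CTL, 1.49 to 1.92 in CPZ and 1.89 to 2.17 in RCV. The difference was smaller in 3 of the 4 CPZ libraries than in every CTL and RCV library, and CPZ replicate 4 overlapped both groups, with no test made of it. Across the 13 libraries, log2-CPM of the 2 astrocyte connexins had a Pearson correlation of 0.292, and after the group means were removed it was 0.636. These points share groups and library composition, and the values are a description. Of the 12 markers of astrocyte identity, 3 were higher and 0 lower in CPZ than in CTL, beside 7.66% and 2.5% of all genes. The summed level of the 12 ran from 4466 to 4913 CPM in CTL, 4548 to 5402 CPM in CPZ and 4659 to 5540 CPM in RCV. Of 8 markers of reactive astrocytes tested, 7 were higher in CPZ, summing to 1046 to 1392 CPM against 215.7 to 277.6 CPM in CTL. Their part in the values of Gjb6 was not tested.

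**Figure D2:**
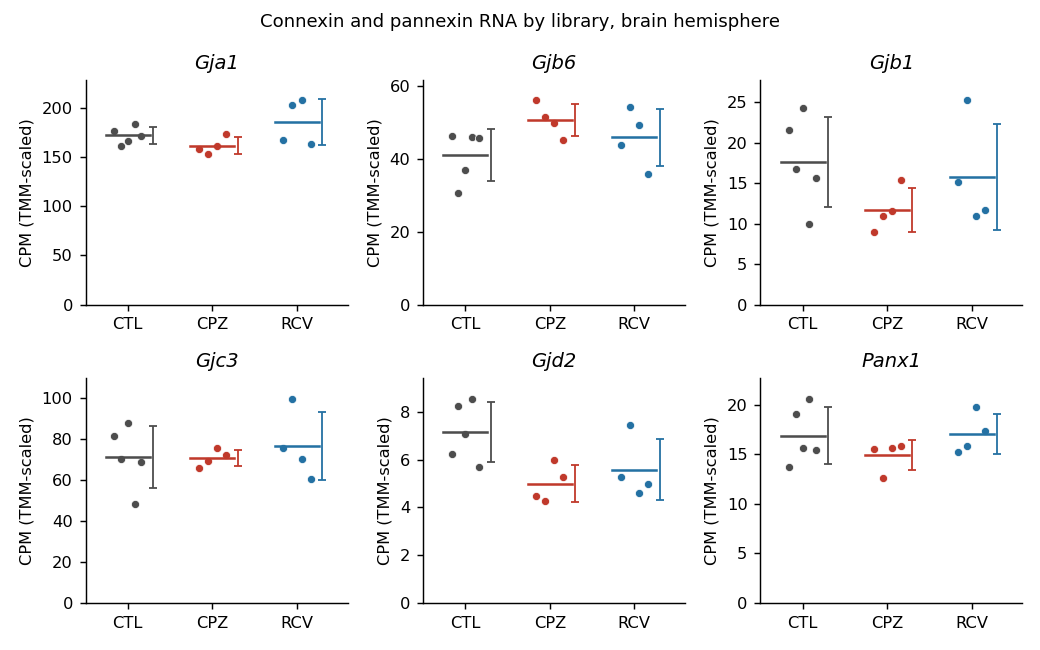
TMM-scaled CPM of the 6 genes by library (points), with the group mean (line) and SD (bar), for CTL (n = 5), CPZ (n = 4) and RCV (n = 4). Groups overlap in every panel. The mean is lowest in CPZ for every gene except Gjb6, whose lowest mean is in CTL.

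Of the oligodendrocyte connexins, Gjb1 encodes Cx32, found along myelin sheaths and mutated in X-linked Charcot-Marie-Tooth disease. It measured 21.6, 16.8, 24.3, 9.94 and 15.6 CPM in CTL, 8.93, 10.9, 11.5 and 15.4 CPM in CPZ, and 15.1, 25.3, 10.97 and 11.7 CPM in RCV. Most CTL libraries were above most CPZ libraries, but CTL replicate 4, at 9.94 CPM, lay within the CPZ range. The log2 fold change for CPZ against CTL was -0.59 (95% interval -1.21 to 0.02), or a fold of 0.66, with an adjusted p = 0.244 in the edgeR fit. For RCV against CTL it was -0.15 (-0.76 to 0.46, adjusted p = 0.995), and for CPZ against RCV -0.44 (-1.10 to 0.21, adjusted p = 0.485). Without RCV replicate 2, these were -0.48 and -0.12, and Gjb1 in RCV against CTL was -0.01 without CTL replicate 3 or RCV replicate 3.

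Gjc3 encodes Cx29, a connexin of oligodendrocytes and Schwann cells. Its CTL libraries held 81.2, 70.4, 87.9, 48.0 and 68.8 CPM, its CPZ libraries 65.8, 69.0, 75.3 and 72.0 CPM, and its RCV libraries 75.4, 99.6, 70.2 and 60.5 CPM. The CPZ values lay inside the range of CTL, and their coefficient of variation was 5.77% against 21.3% in CTL and 21.8% in RCV. The log2 fold change for CPZ against CTL was -0.01 (95% interval -0.36 to 0.33, adjusted p = 0.976, edgeR), and the interval spans folds of 0.78 to 1.26. Among all genes tested, the size of this change was at percentile 6.53. For RCV against CTL it was 0.11 (-0.25 to 0.46, adjusted p = 0.991), and for CPZ against RCV -0.12 (-0.49 to 0.25, adjusted p = 0.783).

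Both genes were set against the MOL markers of the same library, as log2-CPM minus the mean log2-CPM of the 12 markers. This MOL score was 7.52 ± 0.360 in CTL (SD, n = 5), 6.04 ± 0.311 in CPZ and 7.62 ± 0.321 in RCV (n = 4 each). Gjc3 stood 1.34 to 1.47 below the score in the 5 CTL libraries and 1.27 to 1.43 below it in the 4 RCV libraries. In CPZ it stood between 0.32 below and 0.34 above the score. Gjb1 stood 3.23 to 3.58 below the score in CTL, 3.38 to 3.92 below it in RCV and 2.34 to 2.72 below it in CPZ. For both genes the CPZ libraries lay above every CTL and RCV library on this measure, which was not tested. The same held for 87.4% of all 14985 genes against CTL and for 94.4% against RCV, with the markers themselves lower in CPZ, so that the separation was not particular to these 2 genes. CPZ replicate 4 had the highest MOL score of its group, at 6.50 against 5.83 to 5.93. Its Gjc3 value was the nearest to CTL on this measure, from which the score is subtracted, so that the 2 are not independent. For Gjb1 the CPZ library nearest to CTL was replicate 1, at 2.72 below the score against 2.53 below it in replicate 4. CTL replicate 4 had the lowest MOL score of its group, at 6.93, together with the lowest CPM of Gjb1 and of Gjc3. The mean level of markers of earlier stages of the lineage was not lower in CPZ. The mean log2-CPM of 6 markers of newly formed oligodendrocytes was 5.65 ± 0.217 in CTL and 5.86 ± 0.0738 in CPZ. That of 5 precursor markers was 4.77 ± 0.171 in CTL and 4.83 ± 0.0913 in CPZ (SD). In each of these lists, 1 gene was called higher and 0 lower, beside 7.66% and 2.5% of all genes. The log2 fold change for CPZ against CTL was above 0 for 5 of the 6 and for 3 of the 5 markers. Their part in the values of Gjc3 and Gjb1 was not tested. In bulk tissue, fewer cells of a type and less RNA per cell cannot be told apart.

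**Figure D3:**
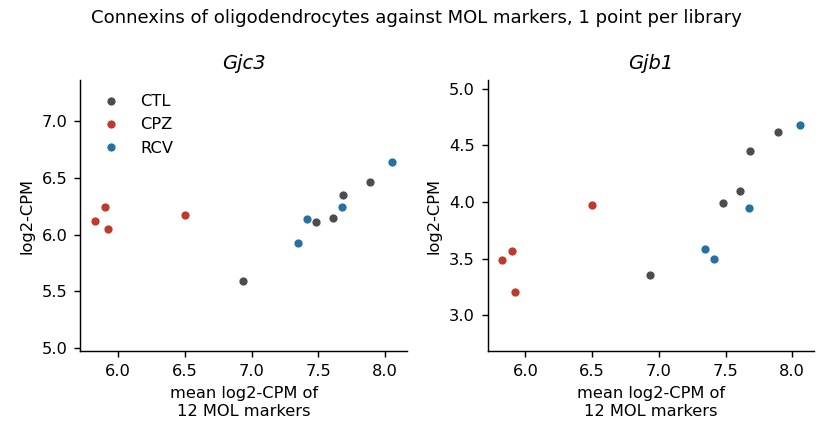
Log2-CPM of Gjc3 and Gjb1 (vertical axes of equal span) against the mean log2-CPM of 12 MOL markers in the same library, with 1 point per library and colour for the group (CTL n = 5, CPZ n = 4, RCV n = 4). CTL and RCV libraries rise together along the MOL score, and CPZ libraries have scores of 5.83 to 6.50 with Gjc3 between 6.05 and 6.24.

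Across the 13 libraries, log2-CPM of Gjb1 and Gjc3 had a Pearson correlation of 0.789, and 0.921 after the group means were removed. The points share library composition and groups, and the values are a description.

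Gjd2 encodes Cx36, the connexin of electrical synapses, which in the adult forebrain are found mostly between inhibitory interneurons. It was counted at 6.25, 8.25, 7.07, 8.56 and 5.69 CPM in CTL, 4.47, 4.25, 5.97 and 5.29 CPM in CPZ, and 5.28, 7.45, 4.62 and 4.99 CPM in RCV. CTL libraries were mostly higher, but CPZ replicate 3 was above CTL replicate 5, and the groups overlapped. For CPZ against CTL the log2 fold change was -0.52 (95% interval -0.91 to -0.13), or a fold of 0.696. This did not pass the test over all genes (unadjusted p = 0.0117, adjusted p = 0.0879, edgeR), and the adjusted p was the lowest of the 6 genes in this contrast. For RCV against CTL it was -0.35 (-0.75 to 0.04, adjusted p = 0.853), and for CPZ against RCV -0.17 (-0.60 to 0.25, adjusted p = 0.724).

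The inhibitory neuron markers summed to 866.6 to 1175 CPM in CTL, 811.3 to 1066 CPM in CPZ and 823.7 to 1253 CPM in RCV. Relative to the mean log2-CPM of these markers, Gjd2 stood 2.88 to 3.50 below in CTL and 3.75 to 3.95 below in CPZ, and 3.53 to 4.07 below in RCV. On this measure, all CPZ and RCV libraries lay below every CTL library, and no test was made. Of all genes, 1.68% had CPZ libraries below every CTL library in this way and 0.574% had such RCV libraries. With the median over the markers in place of the mean, RCV libraries overlapped CTL and CPZ libraries did not, beside 0.741% of all genes with CPZ libraries below CTL. Relative to the excitatory markers, Gjd2 stood 3.66 to 4.66 below in CTL and 4.14 to 4.84 below in CPZ, and the groups overlapped. With 23 to 56 counts per library, counting error was between 13.4% and 20.9% of each value.

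Panx1 encodes the large-pore channel that releases ATP from neurons, glia and immune cells. It measured 13.7, 19.1, 15.7, 20.6 and 15.4 CPM in CTL, 15.6, 12.6, 15.7 and 15.9 CPM in CPZ, and 15.2, 15.9, 19.8 and 17.4 CPM in RCV. Except for CPZ replicate 2, the CPZ libraries lay within the CTL range. The log2 fold change was -0.18 for CPZ against CTL (95% interval -0.45 to 0.09, adjusted p = 0.48, edgeR), 0.01 for RCV against CTL (-0.27 to 0.29, adjusted p = 0.999) and -0.19 for CPZ against RCV (-0.48 to 0.10, adjusted p = 0.51). Microglial markers moved in the CPZ against CTL contrast, where all 10 were called higher in CPZ, beside 7.66% of all genes. They summed to 956.2 to 1969 CPM in CPZ, against 293.8 to 351 CPM in CTL. Their part in the Panx1 values was not tested.

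**Figure D4:**
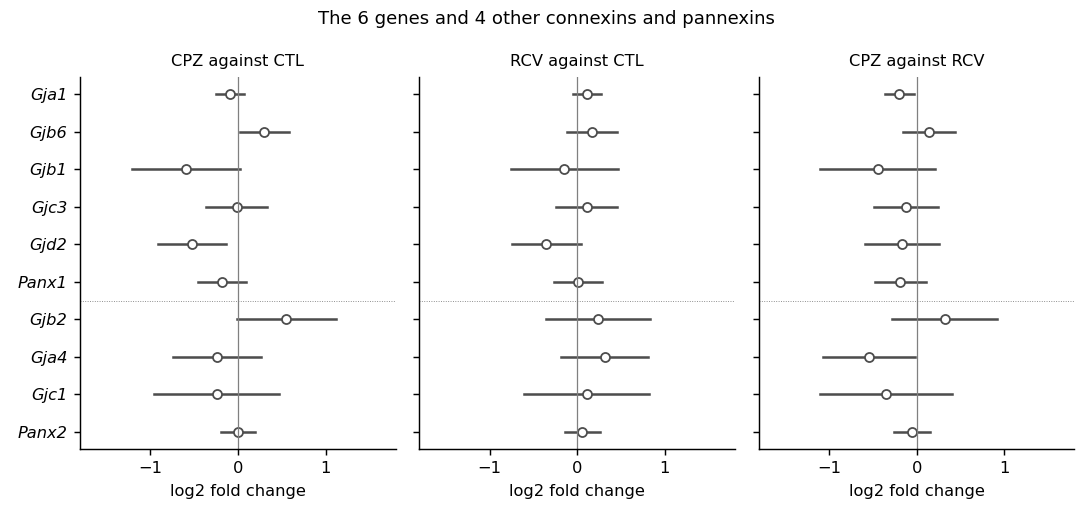
Log2 fold change (points) with 95% intervals (lines) in 3 contrasts for the 6 genes and, below the dotted line, 4 other connexins and pannexins, with filled red points for an adjusted p below 0.05. No point is filled, and for CPZ against CTL the values run from -0.59 for Gjb1 to 0.55 for Gjb2.

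Of 15 other connexins and pannexins reported here, 4 passed the filter on low counts, and 0 of these 4 were called by edgeR, DESeq2 or limma-voom in any contrast. At an unadjusted p below 0.05 there was 1 of the 4 in CPZ against RCV and 0 in each of the contrasts with CTL. Of all genes, 19.1% had such a p in CPZ against RCV, 22.1% in CPZ against CTL and 6.2% in RCV against CTL. Gjb2 encodes Cx26, a connexin of the meninges and some astrocytes. It ran from 4.5 to 10.2 CPM in CTL, 6.58 to 10.9 CPM in CPZ and 4.25 to 11.2 CPM in RCV, with a log2 fold change of 0.55 for CPZ against CTL (95% interval -0.01 to 1.12, adjusted p = 0.238, edgeR). The arterial connexin Gja4 (Cx37), at 1.74 to 3.96 CPM, had a log2 fold change of -0.23 in that contrast (adjusted p = 0.643) and of -0.55 in CPZ against RCV (unadjusted p = 0.0415, adjusted p = 0.236). For Gjc1 the CPZ against CTL value was -0.24 (Cx45, adjusted p = 0.759), a gene that ran from 4.12 to 12.0 CPM. Panx2, the second brain pannexin, at 70.7 to 101.6 CPM, had a log2 fold change of 0.01 (-0.19 to 0.20, adjusted p = 0.986). The other 11 genes had at most 5 counts in any library, and Gje1 had 0 in all.

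Of 16 proteins that bind, modify or traffic connexins, 0 were called in any contrast by edgeR. At an unadjusted p below 0.05 there were 3 of 16 in CPZ against CTL, 0 in RCV against CTL and 3 in CPZ against RCV. Over all genes, the shares were 22.1%, 6.2% and 19.1%, so that 3 of 16 was not above them. The 3 genes were the same in both contrasts of CPZ. They were the scaffold Tjp1 (ZO-1), with log2 fold changes of 0.14 and 0.20, the actin-binding Dbn1 (-0.23 and -0.26) and the calcium kinase subunit Camk2b (-0.20 and -0.20). In CPZ against RCV, DESeq2 called Tjp1 (0.20, adjusted p = 0.0332), and limma-voom called none in any contrast. Without RCV replicate 2, edgeR called Dbn1 in CPZ against CTL (-0.23, adjusted p = 0.0332) and Dbn1 and Tjp1 in CPZ against RCV (-0.33 and 0.23, adjusted p = 0.0128 and 0.0464). Without CPZ replicate 2, it called Camk2b in CPZ against CTL (-0.25, adjusted p = 0.0436). The median log2 fold change of the list was -0.09 for CPZ against CTL and -0.03 for CPZ against RCV, beside -0.02 and -0.01 over all genes tested.

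Of 11 genes of glial potassium and water handling, the task to which the panglial network is tied, 2 were higher in CPZ than in CTL, 0 were lower and 9 were not called. Of all genes, 7.66% were called higher and 2.5% lower in this contrast. Aqp4, the water channel of astrocyte endfeet, rose by a log2 fold change of 0.54 (95% interval 0.36 to 0.73, adjusted p = 0.000363, edgeR). Mlc1, a membrane protein of the same endfeet, rose by 0.26 (0.09 to 0.44, adjusted p = 0.0472), and this call was lost in 10 of 13 fits that left out 1 library, at 0.22 to 0.29 and adjusted p up to 0.149. It held without CTL replicate 4, RCV replicate 2 or RCV replicate 3, and was lost in 4 of 10 alternatives, the 3 fits on TPM and the replicate block (adjusted p up to 0.221). The list's median was 0.08, beside -0.02 over all genes. Aqp4 was also higher in RCV than in CTL, by 0.44 (0.26 to 0.63, adjusted p = 0.0384), a call lost in 9 of the 13 fits, at 0.39 to 0.47 and adjusted p up to 0.171, and in 7 of 10 alternatives. It held without CPZ replicates 1, 2 or 3 or RCV replicate 4. In CPZ against RCV, 0 of 11 were called. With 1 library left out, Mlc1 ran from 0.16 to 0.28 in this contrast, with adjusted p from 0.0415 to 0.433 (edgeR), so that it was called in at least 1 such fit. Aqp4 was the 1 gene of the list whose correlation with Gja1 and Gjb6 was computed. Over the 13 libraries it was 0.196 and 0.717, and 0.726 and 0.668 with the group means removed, as a description.

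Of 13 genes that act with pannexin channels, through ATP receptors, the inflammasome or the breakdown of ATP, 11 were tested. In CPZ against CTL, 5 were higher, 0 lower and 6 not called, with a list median of 0.72 beside -0.02 over all genes. Of all genes, 7.66% were called higher and 2.5% lower in this contrast. P2rx7, the ATP-gated receptor through which extracellular ATP opens large pores, rose by a log2 fold change of 0.83 (95% interval 0.58 to 1.08, adjusted p = 0.000137, edgeR). P2rx4, a related receptor, rose by 0.50 (adjusted p = 0.0283), a call lost, at 0.42 to 0.50 and adjusted p up to 0.117, without CTL replicate 1, 2 or 4 or CPZ replicate 1 or 2, and with the replicate block (0.50, adjusted p = 0.0795). The inflammasome genes Nlrp3 and Pycard rose by 1.84 (adjusted p = 0.00126) and 2.28 (adjusted p = 2.01e-05), and the ectonucleotidase Entpd1 by 0.83 (adjusted p = 0.00272, edgeR). Counts of Nlrp3 were low, and it did not reach 10 in every library. It was therefore absent from the alternative with that filter, and also from the fit of RCV and CTL alone. On log2(TPM + 1), P2rx7, P2rx4, Nlrp3 and Entpd1 were not called in this contrast, at 0.53 (adjusted p = 0.0518), 0.43 (0.147), 0.95 (0.0554) and 0.58 (0.386).

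Beside 5.13% of all genes higher and 1.88% lower in CPZ against RCV, 4 of these 11 genes were higher and 0 lower. They were P2rx7 at 0.59 (adjusted p = 0.00789), Nlrp3 at 1.41 (adjusted p = 0.0214), Pycard at 1.83 (adjusted p = 0.000835) and Entpd1 at 0.65 (adjusted p = 0.0322). On log2(TPM + 1), P2rx7 (0.48, adjusted p = 0.134), Nlrp3 (0.65, 0.299) and Entpd1 (0.22, 0.843) were not called in this contrast, and Pycard lost its call in 2 of the 3 fits on TPM (adjusted p = 0.0615 and 0.0804). The replicate block ended the call of Entpd1 as well (0.65, adjusted p = 0.105). With 1 library left out, the call of Nlrp3 was lost, at 1.21 to 1.4 and adjusted p up to 0.0861, without CPZ replicate 1 or 2 or RCV replicate 1 or 4. That of Entpd1 was lost, at 0.51 to 0.66 and adjusted p up to 0.112, without CPZ replicate 1 or 2 or RCV replicate 1, 2 or 3. In RCV against CTL, 0 of 11 were called, at a median of 0.23 beside -0.004 over all genes. All 5 genes called in CPZ are known to be expressed by microglia, whose 10 markers were higher in CPZ, and the part of these cells in the values was not tested. Panx1 itself had a log2 fold change of -0.18 in CPZ against CTL and was not called.

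**Figure D5:**
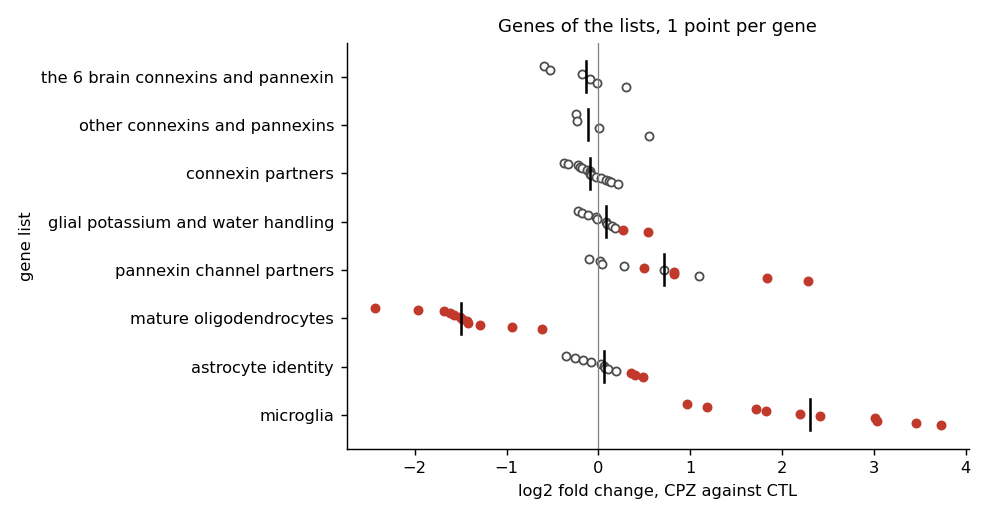
Log2 fold change for CPZ against CTL, with 1 point per gene tested, a line at the median of each list and filled red points for an adjusted p below 0.05. All 6 brain connexin and pannexin genes are open, between -0.59 and 0.30, while all 12 genes of mature oligodendrocytes are filled below 0 and all 10 of microglia are filled above 0.

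For each gene, the 3 genes with the most similar pattern were taken by Pearson correlation of log2-CPM over the 13 libraries, among the 14142 genes whose mean log2-CPM was 1 or more. For Gja1 they were Dusp15 (0.880), Tst (0.867) and Nkd2 (0.847). For Gjb6 they were Orai3 (0.899), Reep4 (0.899) and Ndrg2 (0.877). For Gjb1 they were Gpr37 (0.946), Ado (0.945) and Otud7b (0.945), and for Gjc3 they were Fnbp1 (0.946), Myrf (0.943) and Igf1r (0.931).

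The same measure named Arxes2 (0.907), Chst10 (0.889) and Rubcn (0.887) for Gjd2, and Radil (0.862), Trim62 (0.852) and Ephb4 (0.851) for Panx1. The values were highest for the 2 oligodendrocyte connexins and lowest for Panx1 and Gja1. The highest of so many correlations is high by selection, and the libraries share groups, depth and tissue composition, so that these values are a description.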

How the data were processed

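With the Kapa mRNA HyperPrep Kit the authors made libraries, sequenced 50-base paired-end reads and ran the RNASequest pipeline. The submitters' processing notes name STAR, RSEM and mm10, without versions. They deposited TPM values and, unscaled, the estimated count of each gene. Of the estimated counts, 4.45% were not whole, and all were rounded. The table also held 92 spike-in identifiers with 0 counts. Of the gene identifiers, 54349 (98.1%) matched GENCODE M21, whose GRCm38 sequence gave the loop bases.

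Genes were filtered by filterByExpr of edgeR 4.0.16 and tested by its robust quasi-likelihood F test on TMM-scaled counts, with one mean per group over 13 libraries and Benjamini-Hochberg adjustment over 14985 genes at a threshold of 0.05. Log2-CPM had a prior count of 2. Intervals are 95% intervals of the fit. On simulated counts with 200 genes changed 2-fold, 91%, 85% and 85.5% were recovered in CPZ against CTL, in RCV against CTL and in CPZ against RCV, and 4.71%, 4.49% and 5% of the calls were false. The chi-square per gene between 2 libraries of a group was 4.49 to 17.8 in 22 pairs, where counting error gives 1.

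The 6 genes and all lists were chosen with earlier results of these data known. The text names the 6 genes, the tested other connexins and pannexins, up to 5 called genes by lowest p from each further list, and the 3 genes most like each of the 6. Dbn1, Tjp1, Camk2b and Gje1 are named outside this rule, after their values were seen. Some genes of the lists are not reported here, so that the other connexins and pannexins are given in part. Alternatives were DESeq2 1.42.0 (size factors or Wald test), limma 3.58.1 (voom, or log2 TPM with pseudocounts of 1 and 0.1, with TPM of at least 1 in 4 libraries or no filter), no filter on counts, at least 10 counts in every library, only the 2 groups compared, a replicate block and each library left out. No test was made of the level order, the differences within a library or the correlations. The nuclei and spatial data of the study were not analysed here.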

Additional observations from a re-analysis of the deposited data

Results flagged for a closer look

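Panx1 in CPZ replicate 2 stood apart from the other CPZ libraries, with a log2-CPM of 3.694 (12.6 CPM) against 3.99 to 4.02 in the other 3. The gap to the nearest of them was 0.910 of the group's range, above Dixon's critical value for 4 samples. Of 30 groups tested in this way, over 10 genes, this was the 1 that stood out, and chance marks about 1 in 20. Without this library, the log2 fold change of Panx1 for CPZ against CTL was -0.11 (adjusted p = 0.759, edgeR).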

How the results depend on the processing

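None of the 6 genes was called in any contrast under the 10 alternatives or in the 13 fits that left out 1 library. Where the direction of a fold change turned, the turned value was near 0, between -0.070 and 0.072. The main value was not always as near. It was -0.17 for Gjd2 and -0.12 for Gjc3 in CPZ against RCV, and 0.11 for Gjc3 in RCV against CTL. Gjc3 in CPZ against CTL was 0.012 by limma-voom, 0.0043 without a filter on counts, 0.0014 with only the 2 groups compared and -0.13 to 0.072 with 1 library left out. Panx1 in RCV against CTL was -0.018 on log2(TPM + 1) with and without the filter, -0.019 with a pseudocount of 0.1, -0.0012 without a filter on counts, -0.013 with the replicate block and -0.070 to 0.092 with 1 library left out. With 1 library left out, Gjc3 ranged from -0.049 to 0.19 in RCV against CTL and from -0.20 to 0.034 in CPZ against RCV, Gjd2 from -0.26 to 0.0033 in CPZ against RCV, and Mlc1 from -0.018 to 0.12 in RCV against CTL.

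Over all genes, RCV against CTL gave 131 calls by the DESeq2 Wald test, 12 by limma-voom, 22 on unfiltered log2(TPM + 1), 20 with at least 10 counts in every library and 21 to 87 with 1 library left out, beside 56. CPZ against CTL gave 992 on unfiltered log2(TPM + 1) and 1078 to 1680 with 1 library left out, beside 1522. CPZ against RCV gave 599 on log2(TPM + 1), 508 with a pseudocount of 0.1, 487 without the filter and 632 to 1170 with 1 library left out, beside 1050. The cause was not tested. The correlations of deviations of same-numbered libraries ran from -0.215 to 0.180, and 3 of 12 were over 0.1. These 3 were all between RCV and CTL, at 0.18, 0.147 and 0.119 for replicates 1, 2 and 4, with -0.215 for replicate 3. Libraries of different number were not compared, so that these values cannot decide whether the replicate numbers pair the mice. With the replicate block, calls were 1172 in CPZ against CTL, 42 in RCV against CTL and 755 in CPZ against RCV, and 0 of the 6 genes were called in each.

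With counts over the median implied length in place of TPM, 2 of 5 neighbours in the level order were separate in CTL, 4 in CPZ and 3 in RCV, beside 3, 3 and 2. With Spearman in place of Pearson correlation, 7 of the 18 most similar genes were shared. With the median over markers in place of the mean, the CPZ minus CTL difference relative to markers was 0.076 for Gja1, in place of -0.16, and 0.48 for Gjb6, 1.26 for Gjb1 and 1.82 for Gjc3, in place of 0.24, 0.94 and 1.49. Of the 6 genes, depth limits Gjd2 most, at 23 to 56 counts per library, and Gja4 had 8 to 27.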
